A study of Mus musculus with 12 samples.

Results

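The Zfp genes are the mouse genes whose symbols are Zfp and a number, and most of them code for proteins with C2H2 zinc fingers, small zinc-binding folds that read DNA or RNA. Members were chosen by the authors' values: they are the features of the count files with such a symbol and a normalized log2 value, without Zfp36, a CCCH protein of another family that destabilizes mRNA. This left 303 of the 367 Zfp features and of 19549 features in all. The deposited log2 values decided membership, and they were present only for features with reads in at least 7 of the 12 libraries. Of the 303 members, 252 passed the filter on low counts and were tested. The 51 others had mean levels of at most 0.749 CPM (counts scaled to library size) and are given no call. The members just inside the limit, with reads in 7 libraries, were Zfp273, Zfp345, Zfp459, Zfp532, Zfp534, Zfp697, Zfp750, Zfp870 and Zfp964, with mean levels of 0.0949 to 0.660 CPM. Just outside it, with reads in 6, were Zfp119b, Zfp13, Zfp2, Zfp599, Zfp661, Zfp712, Zfp773, Zfp882 and Zfp976, at 0.0693 to 0.317 CPM.

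The samples were macrophages grown from bone marrow of female FVB mice, with no transgene or deletion named in the labels. They were polarized for 4 h either with IFNG, interferon gamma at 200 units/mL, or with IL4, interleukin 4 at 40 ng/mL. A small share of each cell population gave total mRNA, and the rest gave polysome-associated mRNA from gradient fractions with over 3 ribosomes a message. The labels do not say that equal replicate numbers mark the same population. There were 4 groups, each of 3 libraries (IFNG total, IFNG polysome, IL4 total, IL4 polysome). The controls of one polarization are the cells of the other, since no unpolarized cells were among the samples. Whether replicates came from different mice or cultures is not in the labels. The p-values therefore reflect only how these libraries varied, which may be technical.

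C2H2 zinc finger genes form one of the largest gene families of mammals, and many lie side by side in clusters that arose by repeated duplication. A large subset carries a KRAB domain, which recruits the corepressor Trim28 and through it Setdb1 and heterochromatin proteins, and these repressors silence transposable elements and imprinted loci. Others activate transcription, join corepressor complexes without a KRAB domain, or act on RNA and ribosomes. Transcripts of this family are usually scarce. In macrophages, IL4 acts mainly through Stat6, and ribosome loading sets how much of a message is being translated.

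All 303 symbols were found in the RefSeq annotation of GRCm38.p6, the assembly that mm10 stands for, and 254 had promoter windows there of 300 bases, running from 250 before to 50 after a start site. Chromosome 7 held 77 members (25.4%), chromosome 17 held 41 and chromosome 13 held 30. Their promoters shared a sequence feature that the choice of members did not use. Of all words of 6 letters, 2 free bases and 5 letters in their windows, 1 was found in more members than any other. This word of 13 bases, ACTACANNTCCCA, read on both strands, was present in 45 of the 254 members with a window (17.7%). It was present in 458 of all 27025 genes with a window (1.69%), in 327 of the 7615 tested features with one (4.29%), and in 14.9% of member windows against 1.47% of all 32851 windows of that length. The word was found in these same windows, so the shares are a description. Of the 45, 22 lie on chromosome 7 and 16 on chromosome 13. All 47 matches lay before the start site, as do 250 of the 300 bases of each window. Of these matches, 36 lay within 100 bases of the start site, and the median distance of all 47 was 57 bases. The word was in 0 of 35 Zbtb genes, 1 of 16 Zkscan and Zscan genes and 1 of 15 Zc3h genes with a window. It resembles the core of the sequence known to be bound by Zfp143, itself a member. The following 8 matches, each with 6 bases on either side, are examples from members of 3 chromosomes. They are not the 8 with the most reads. Zfp146, at a mean of 2.16 CPM, is shown, while Zfp358 (4.79 CPM), Zfp317 (3.19), Zfp128 (2.33), Zfp780b (2.31), Zfp790 (2.27) and Zfp429 (2.27) are not. Capitals mark the word, and the strand is the one on which it reads this way.
Zfp84 (chr7:29768522-29768546, - strand): tagtggACTACATTTCCCAgaaggc
Zfp180 (chr7:24081867-24081891, - strand): aatggaACTACAATTCCCAgaactc
Zfp146 (chr7:30169854-30169878, + strand): ctttggACTACACTTCCCAcaaggc
Zfp260 (chr7:30095040-30095064, - strand): ctgtgaACTACATTTCCCAgaagtc
Zfp444 (chr7:6172366-6172390, - strand): ctggaaACTACATCTCCCAagaaac
Zfp691 (chr4:119174356-119174380, - strand): ctccgaACTACAACTCCCAgcatgc
Zfp729a (chr13:67637798-67637822, + strand): accaggACTACACTTCCCAcaagtc
Zfp748 (chr13:67553161-67553185, + strand): cggaagACTACACTTCCCAcaagtc
The 6 bases after the word were the same, caagtc, in both members shown from chromosome 13. Members of one cluster share descent, so these matches are not independent of each other.

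The whole windows of 2 members show where the word sits, 24 bases before the start site in Zfp84, which was higher on polysomes, and 141 bases before it in Zfp444, which was lower. Both are written 5′ to 3′ on the gene's strand, with the word, here read on the opposite strand, in capitals.
Zfp84 (chr7:29768302-29768601, + strand): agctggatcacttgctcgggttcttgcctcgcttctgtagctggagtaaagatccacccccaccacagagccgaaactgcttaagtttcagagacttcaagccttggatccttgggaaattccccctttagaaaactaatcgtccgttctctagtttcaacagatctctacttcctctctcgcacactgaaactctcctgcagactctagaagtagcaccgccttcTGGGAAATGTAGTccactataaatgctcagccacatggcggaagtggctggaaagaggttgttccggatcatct
Zfp444 (chr7:6172263-6172562, + strand): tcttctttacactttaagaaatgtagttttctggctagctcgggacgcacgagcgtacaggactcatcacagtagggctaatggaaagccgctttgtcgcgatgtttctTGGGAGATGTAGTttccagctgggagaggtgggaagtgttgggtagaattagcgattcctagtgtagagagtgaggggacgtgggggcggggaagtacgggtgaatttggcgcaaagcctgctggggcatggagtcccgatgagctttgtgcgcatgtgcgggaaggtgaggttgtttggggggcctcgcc
Of the 45 members with the word, 36 were tested, and 3 were higher and 3 lower on polysomes, with a median log2 fold change of 0.27. Of the 209 members with a window but without the word, 174 were tested, and 34 were higher and 23 lower, with a median of 0.15. Over all features tested, 22.6% were higher and 25.7% lower. Whether the calls go with the word was not tested. Members with the word had a median level of 1.33 CPM and those without it 2.82 CPM. Zfp143, named for this word after its values were seen, had 2.47, 3.49 and 6.65 CPM in IFNG total mRNA and 10.0, 9.46 and 11.1 on IFNG polysomes. With IL4 it had 2.76, 4.29 and 6.77 CPM in total mRNA and 8.86, 8.14 and 8.70 on polysomes. Every polysome library was above every total library, and the averaged log2 fold change was 1.08 ± 0.37 (SE, adjusted p = 0.0186, edgeR).

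Zfp genes drew few reads throughout, on a scale not corrected for transcript length. The median member stood at 2.35 CPM over the 12 libraries, tested members at 3.25 and all 10421 tested features at 20.5. A total of 59 members reached 10 CPM, 82 stayed under 1 CPM, and 196 had reads in all 12 libraries. Summed over the 303 members, the level was 2076 ± 186 CPM in IFNG total mRNA and 1849 ± 50.6 in IL4 total mRNA (SD, n = 3 each). On polysomes it was 2668 ± 246 with IFNG and 2470 ± 113 with IL4. The 6 total libraries ran from 1795 to 2239 CPM and the 6 polysome libraries from 2359 to 2951, without overlap on this scale, where library totals are multiplied by TMM factors. As plain shares of the counts the ranges overlapped, at 0.134 to 0.238% in total and 0.216 to 0.342% in polysome libraries. Both measures are relative to a library, and fewer cells and less RNA per cell cannot be told apart in bulk samples. Library totals ran from 10443200 to 22014162 counts in total mRNA and from 2563955 to 8789480 on polysomes, and 3 counts corresponded to 0.184 to 1.13 CPM. A single gene, Lars2, took 0.341 to 2.00% of the counts of total libraries and 1.78 to 29.3% of those of polysome libraries, and its part in the differences below is given where it changed a call. All 13 macrophage markers had reads in every library. Of the lists for other cell types, 4 of 7 T and NK cell markers had reads, summing to 26.7 to 50.1 CPM in IFNG total, 29.5 to 116 in IFNG polysome, 42.9 to 46.6 in IL4 total and 67.7 to 160 in IL4 polysome libraries, with Cd3e, Cd3g and Ncr1 at 0. The 7 neutrophil markers, all with reads, summed to 10.5 to 32 CPM in IFNG total and 1.20 to 4.54 in IL4 total mRNA, and to 3.78 to 8.13 and 0.272 to 4.16 on polysomes. For 5 of 6 dendritic cell markers with reads (Flt3 at 0) the sums were 8.43 to 26.9 and 0.552 to 1.60 CPM in IFNG and IL4 total mRNA, and 17.3 to 44.4 and 0.681 to 2.12 on polysomes. Stromal markers (5 of 6 with reads, Lum at 0) reached 42.0 CPM in an IFNG polysome library and at most 12.4 in the other groups, and B cell markers (4 of 6, Ms4a1 and Pax5 at 0) at most 6.85. Erythroid, and mast cell and basophil, markers summed to at most 0.954 and 1.38 CPM.

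The first comparison asked which Zfp messages were over- or under-represented among messages with more than 3 ribosomes. Zfp messages were called in both directions, and those with more reads over both fractions together were mostly higher on polysomes. Averaged over the polarizations, 47 of the 252 tested members were higher and 31 lower (18.7% and 12.3%), against 22.6% and 25.7% of all features tested (edgeR quasi-likelihood test, Benjamini-Hochberg adjusted p under 0.05 over all features). In total 31% of members and 48.2% of all features were called. The median log2 fold change was 0.22 over tested members and 0.04 over all features. No overlap between the 6 polysome and 6 total libraries was seen for 9 members higher and 15 lower, against 6.69% and 10.5% of all features. With library totals in place of TMM scaling the counts were 51 higher and 18 lower, as the median of all features moved to 0.24; with Lars2 left out they were 39 and 32, and that median moved to -0.09. The distance between the members' median and that of all features was 0.18 to 0.20 under these scalings. A scaling moves all features by a similar amount, so this distance could hardly change. Under other alternatives it ran from 0.06 (limma on the authors' log2 values) to 0.74 (features of at least 10 CPM, by a mean that includes the polysome libraries).

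**Figure D1:**
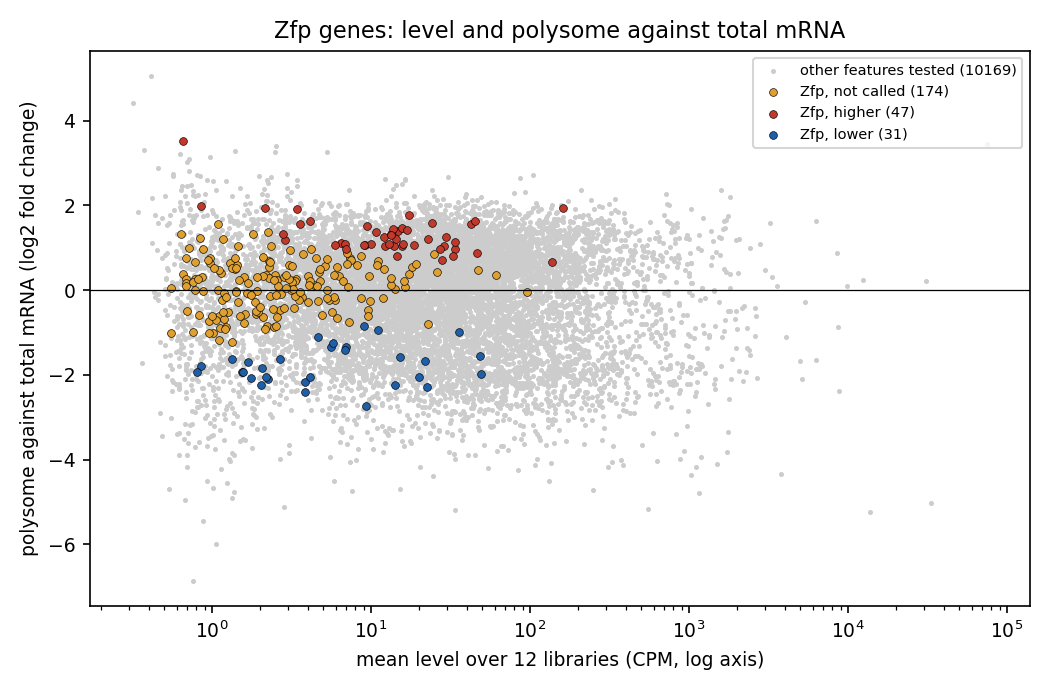
Each point is 1 tested feature, placed by its mean level over 12 libraries (CPM, log axis) and its log2 fold change of polysome against total mRNA averaged over IFNG and IL4; grey points are features other than Zfp genes, coloured points the 252 tested Zfp genes by call. Most members lie left of the bulk of features, and the 47 called higher gather mainly above 10 CPM. The mean level includes the polysome libraries, so the axes are not independent of each other.

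The share of members called was greater where the mean level was higher. Under 3 CPM, 5 of 119 members were higher and 12 lower (14.3% called, against 21.2% of all features in that range). From 3 to 10 CPM, 10 of 74 were higher and 10 lower (27.0% against 33.1%). From 10 to 30 CPM, 24 of 45 were higher and 6 lower (66.7% against 50.1%), with a median of 0.86 against 0.18 for all features of that range. At 30 CPM and over, 8 of 14 were higher and 3 lower (78.6% against 63.5%), with a median of 0.74 against -0.01. By these ranges the leaning towards polysomes was seen among members of 10 CPM and over. It was not seen below 3 CPM, where the median was -0.03 and the median standard error 0.63. The mean level includes the polysome libraries, so a rise there lifts a gene towards a higher range and a fall lowers it. The ranges thus partly hold the result. Whether the leaning goes with the level in total mRNA alone was not tested.

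**Figure D2:**
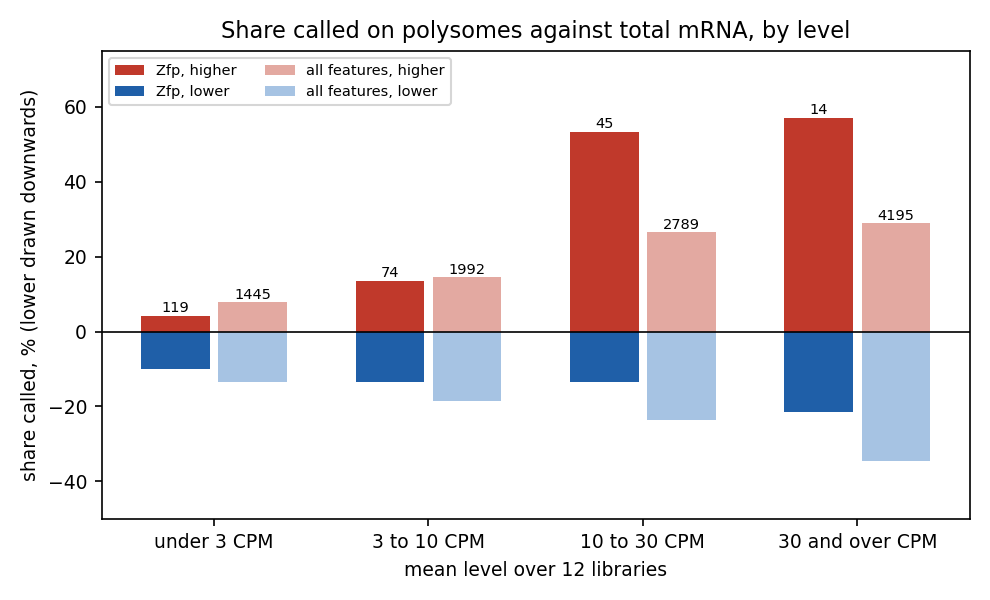
Bars give the share of Zfp genes (dark) and of all tested features (light) called higher (upwards) or lower (downwards, drawn below 0) on polysomes than in total mRNA, in 4 ranges of mean level; numbers over the bars count the genes. In the ranges from 10 CPM, 24 of 45 and 8 of 14 Zfp genes were higher. The mean level includes the polysome libraries, so a rise there also lifts a gene towards a higher range.

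Zfp106 had one of the widest shifts to polysomes among the members named. It codes for an RNA-binding zinc finger protein needed to maintain motor neurons and muscle, and lies at chr2:120506820-120563864. Its total mRNA values were 41.7, 68.4 and 76.7 CPM with IFNG and 49.5, 72.7 and 88.0 with IL4. On polysomes they were 237, 247 and 255 with IFNG and 348, 256 and 188 with IL4. Every polysome library was above every total library, and the averaged log2 fold change was 1.95 ± 0.29 (adjusted p = 2.9e-05).

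The other members at the upper end of the shift were Zfp146, Zfp280b, Zfp84, Zfp871, Zfp287, Zfp516 and Zfp217, at log2 fold changes of 1.56 to 1.95. Zfp84 (chr7:29768552-29781419) had 6.28 to 10.1 CPM in the 6 total libraries and 17.8 to 37.6 in the 6 polysome libraries, and changed by 1.78 ± 0.31 (adjusted p = 0.000117). Zfp217, a partner of the corepressor CtBP that is linked to breast cancer in its human form, had 14.1, 29.2 and 21.8 CPM in IFNG total mRNA and 35.9, 83.0 and 64.6 on IFNG polysomes. With IL4 its values were 29.8, 19.1 and 16.4 in total mRNA and 71.8, 50.3 and 78.7 on polysomes. The groups did not overlap, and the change was 1.56 ± 0.31 (adjusted p = 0.000335). Zfp871 had 14.6 to 31.9 CPM in total mRNA and 79.7 to 107 on IFNG polysomes, but 93.9, 25.9 and 24.6 on IL4 polysomes, so that 2 of those libraries lay within the range of total mRNA. Zfp146, a protein made almost only of zinc fingers, rested on few reads, with 38 and 30 in the IFNG and IL4 total libraries and 61 and 34 in the polysome libraries. It passed the filter on low counts, and the level asked of named members, only through the polysome libraries, where it was high. Its test therefore gives no separate support for a rise.

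Zfp688 (chr7:127418963-127423241) showed the deepest fall among the members named. Its total mRNA values were 22.6, 12 and 8.98 CPM with IFNG and 20.4, 23.1 and 10.4 with IL4. On polysomes they were 3.00, 2.31 and 0.739 with IFNG and 1.36, 4.6 and 2.65 with IL4. Every polysome library was below every total library, and the log2 fold change was -2.73 ± 0.42 (adjusted p = 4.12e-05).

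Zfp771, Zfp524, Zfp444, Zfp324, Zfp560, Zfp944 and Zfp706 also fell with no overlap between the 6 total and 6 polysome libraries. Zfp771 (chr7:127242996-127254872) had 18.0 to 54.3 CPM in total mRNA and 5.59 to 13.1 on polysomes, a change of -2.27 ± 0.35. Zfp524 (chr7:5015216-5018493), whose human form binds telomere repeats, had 11.1 to 33.4 CPM in total mRNA and 2.48 to 7.58 on polysomes, a change of -2.23 ± 0.37. Zfp706 codes for a very short zinc finger protein. Its total values were 63.2, 33.3 and 94.4 CPM with IFNG and 66.0, 105 and 114 with IL4. Its polysome values were 32.2, 10.1 and 18.1 with IFNG and 21.8, 20.2 and 15.9 with IL4, and the change was -1.97 ± 0.33 (adjusted p = 9.54e-05). Zfp707, Zfp428, Zfp579 and Zfp775 were called lower at -2.06 to -2.39, with some overlap between libraries. Of these, Zfp428 passed the filter on low counts only through the total libraries, where it was high, so its test gives no separate support for a fall. The call of Zfp775 rested on 1 library of 7.74 CPM, IFNG total replicate 1, where the other total libraries ran from 0.691 to 2.83 CPM. Without that library its change was -1.23 (adjusted p = 0.186). Leaving out replicate 2 of either polysome group also ended its call.

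**Figure D3:**
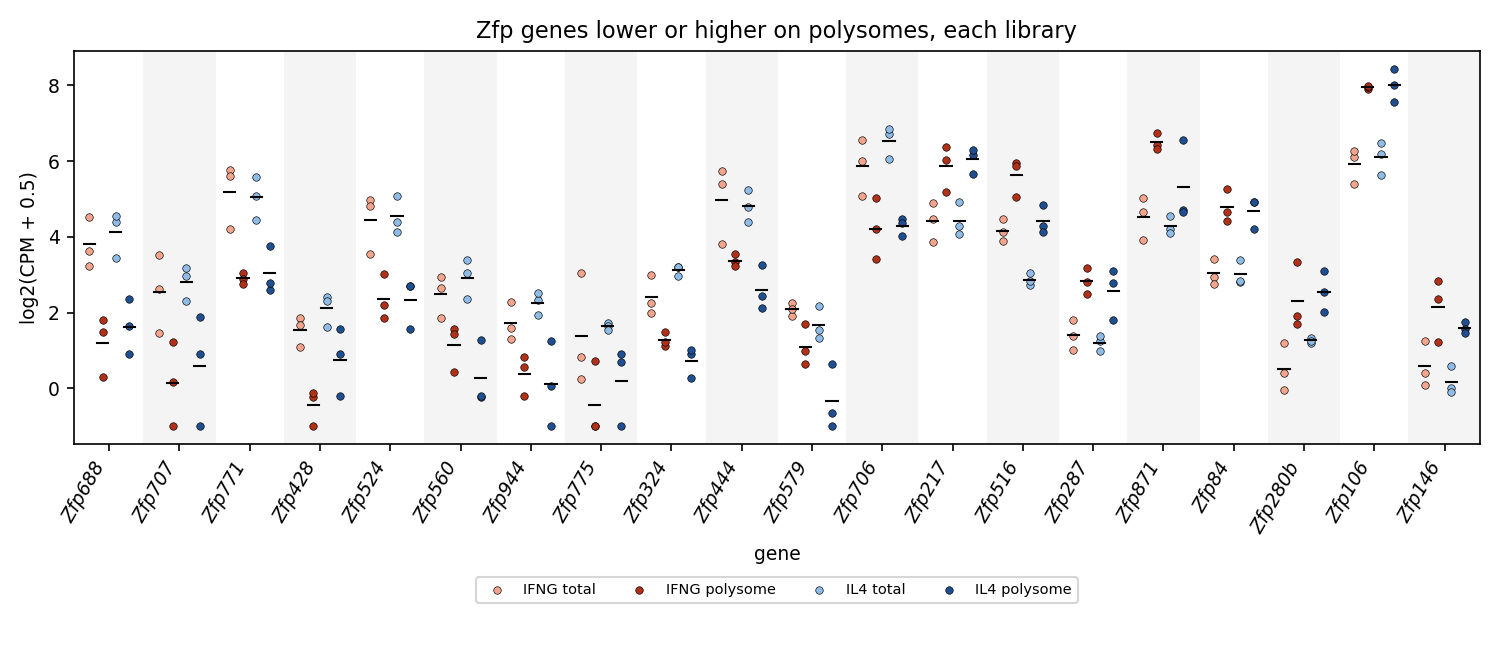
Each point is 1 library and each bar the mean of the 3 libraries of a group, for the 12 members with the lowest and the 8 with the highest log2 fold change of polysome against total mRNA among called members of at least 3 CPM in a group; the axis is log2(CPM + 0.5), so that a gene without reads sits at -1. The polysome bars lie below the total bars for Zfp688 to Zfp706 and above them for Zfp217 to Zfp146.

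Gene span was set beside the calls. Members higher on polysomes had a median genomic span of 27.0 kb, those lower 11.9 kb and those not called 16.1 kb. Over the 252 tested members the rank correlation of span with the fold change was 0.25, and over 9362 tested features with a span it was 0.49, a description across genes that share libraries. Among members of under 10 kb, 3 were higher and 12 lower of 41, and among those of 40 kb and over, 13 were higher and 2 lower of 33. Of all features in these ranges, 144 were higher and 1132 lower of 2155, and 1276 were higher and 211 lower of 3124. Spans include introns, and no transcript lengths were used here.

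Among 10 Zfp genes known to act on RNA, ribosomes or splicing, all of them tested, 3 were higher and 1 lower, where 22.6% of all features were higher and 25.7% lower. The median log2 fold change was 0.46, against 0.04 for all features. The higher ones were Zfp106, Zfp326, a subunit of a complex that couples elongating polymerase to splicing, and Zfp207, a spindle assembly factor. Zfp326 rose by 1.21 ± 0.36 (adjusted p = 0.00862). It had 6.47 to 10.8 CPM in total mRNA and 25.7 to 30.9 on IL4 polysomes, but 17.3, 17.4 and 2.59 on IFNG polysomes, where the third library lay below every total library. Zfp207 (83.2 to 156 CPM in total mRNA, 110 to 216 on polysomes) passed narrowly, at 0.66 ± 0.27 (adjusted p = 0.0465). Omission of any 1 of 9 libraries, or of Lars2, ended this call, with values of 0.58 to 0.77 over all 12 single omissions. The 9 were IFNG total 1 and 2, IFNG polysome 1 and 2, the 3 IL4 total libraries, and IL4 polysome 2 and 3. The lower one was Zfp593 (chr4:134243306-134245591), whose yeast relative helps export the large ribosomal subunit from the nucleus. Its values were 82.6, 98.0 and 54.1 CPM in IFNG total mRNA, 26.3, 18.3 and 5.54 on IFNG polysomes, 69.8, 66.1 and 60.2 in IL4 total mRNA and 29.7, 30.8 and 43.5 on IL4 polysomes. The groups did not overlap, and the change was -1.56 ± 0.32 (adjusted p = 0.00056). Zfp385a and Zfp638, both RNA-binding, were not called at 0.42 ± 0.30 and 0.54 ± 0.32.

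Of 15 transcription regulators, 14 were members and tested, and 6 were higher and 0 lower, also at an unadjusted p under 0.05 (all features 22.6% and 25.7% by the adjusted call), with a median of 0.55 against 0.04. The higher ones were Zfp609, which works with cohesin loading factors in neural progenitors, Zfp318, Zfp407, Zfp143, Zfp384 and Zfp292. Zfp609 had 4.86 to 11.5 CPM in the total libraries and 13.2 to 40.6 on polysomes, without overlap, and changed by 1.42 ± 0.31 (adjusted p = 0.000817). Zfp318, known from the splicing of immunoglobulin transcripts in B cells, changed by 1.10 ± 0.35 and Zfp384 by 1.05 ± 0.33. Zfp91, Zfp335 and Zfp148, at 0.37 ± 0.32, 0.48 ± 0.30 and 0.62 ± 0.32, did not pass. Neither this list nor those for RNA, corepressors and KRAB-type genes was matched for level. Among all Zfp genes of 10 to 30 CPM, 24 of 45 were higher, so the counts by list do not single out a function.

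Of 15 Zfp genes linked to corepressor complexes, 11 were members and 10 were tested, of which 6 were higher and 0 lower, again also at an unadjusted p under 0.05 (all features 22.6% and 25.7% by the adjusted call), with a median of 0.96 against 0.04. Besides Zfp217 and Zfp516 these were Zfp592, a partner of the chromatin reader Zmynd8, Zfp451, a SUMO ligase, Zfp512b and Zfp462. Zfp451 had 4.44 to 9.55 CPM in total mRNA and 12.6 to 24.4 on polysomes, without overlap, and changed by 1.26 ± 0.31 (adjusted p = 0.00242). Zfp592 had 24.3 to 55.7 CPM in total mRNA and 40.4 to 84.1 on polysomes, with overlap, and changed by 0.89 ± 0.29 (adjusted p = 0.0148). Zfp512b (0.98 ± 0.36, adjusted p = 0.0302) lost its call without IFNG total 3, IFNG polysome 2 or 3, IL4 total 1 or 3, or IL4 polysome 2 or 3, at 0.80 to 1.14 over all omissions, and also without Lars2. Zfp462 had at most 0.930 CPM in total mRNA and was 0 in 2 of the libraries. It passed the filter on low counts only through the polysome libraries, where it was high. Its test therefore gives no separate support for a rise, and the count of 6 higher and the median include it. Zfp703, a Groucho-binding repressor, was not called at 0.39 ± 0.32.

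Of 14 KRAB-type genes with known targets, 10 were tested, of which 3 were higher and 1 lower (all features 22.6% and 25.7%), with a median of 0.68 against 0.04. Zfp369, which binds the neurotrophin receptor p75, had 4.00 to 9.24 CPM in total mRNA and 12.8 to 35.2 on polysomes, without overlap, and changed by 1.44 ± 0.31 (adjusted p = 0.00082). Zfp445, which protects genomic imprints, had 4.36 to 7.56 CPM in total mRNA and 6.37 to 17.4 on polysomes, with overlap, and changed by 1.06 ± 0.32 (adjusted p = 0.00972). Zfp69 rose by 1.55 ± 0.51 and Zfp932, a repressor of endogenous retroviruses, fell by 1.93 on the log2 scale (SE 0.69). Zfp932 passed the filter on low counts only through the total libraries, where it was high, so its test gives no separate support for a fall. Zfp568, which represses a placental Igf2 promoter, Zfp110, Zfp746 and Zfp961 were not called, at 0.88, 0.61, 0.75 and 0.23. Of 30 corepressor and heterochromatin partners of these proteins, 24 were tested, of which 12 were higher and 2 lower (all features 22.6% and 25.7%). Trim28 itself was not called at 0.09 (adjusted p = 0.829), with 88.2 ± 43.7 CPM in IFNG total mRNA, 85.7 ± 15.1 on IFNG polysomes, 105 ± 18.0 in IL4 total mRNA and 122 ± 28.9 on IL4 polysomes. Other zinc finger families had 12 higher and 4 lower of 33 Zbtb genes, 3 and 0 of 15 Zkscan and Zscan genes, and 8 and 0 of 14 Zc3h genes, and their difference from the Zfp genes was not tested.

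Within IFNG alone, 18 members were higher and 11 lower on polysomes (8.93% and 17% of all features), and within IL4 alone 22 and 12 (13.2% and 15.9% of all features). These comparisons use different libraries but share 1 estimate of the spread. A total of 9 members were called higher on polysomes than in total mRNA in both polarizations and 7 lower in both, while 0 had opposite calls. The same counts over all features are not given here, so these do not set the members apart from other genes. The 9 were Zfp106, Zfp871, Zfp84, Zfp516, Zfp217, Zfp287, Zfp652, Zfp704 and Zfp180, and the 7 were Zfp688, Zfp771, Zfp524, Zfp444, Zfp706, Zfp637 and Zfp64. The IFNG counts fell to 5 and 6 without IFNG total replicate 1 and to 6 and 6 without IFNG polysome replicate 2, and the higher count to 11 without IFNG polysome replicate 3. The count higher with IL4 was 6 to 8 without IL4 total replicate 1 or 2 or IL4 polysome replicate 3, and 14 without IL4 total replicate 3 or IFNG total replicate 2. With Lars2 left out, the IL4 counts were 12 higher and 18 lower, and with library totals in place of TMM scaling the IFNG counts were 17 and 4. The interaction, which tests whether the polysome shift differed between the polarizations, called 0 members and 0 features of any kind (0% of 10421, edgeR; 4 members higher and 1 lower at an unadjusted p under 0.05, and 0 members by DESeq2 and by limma).

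**Figure D4:**
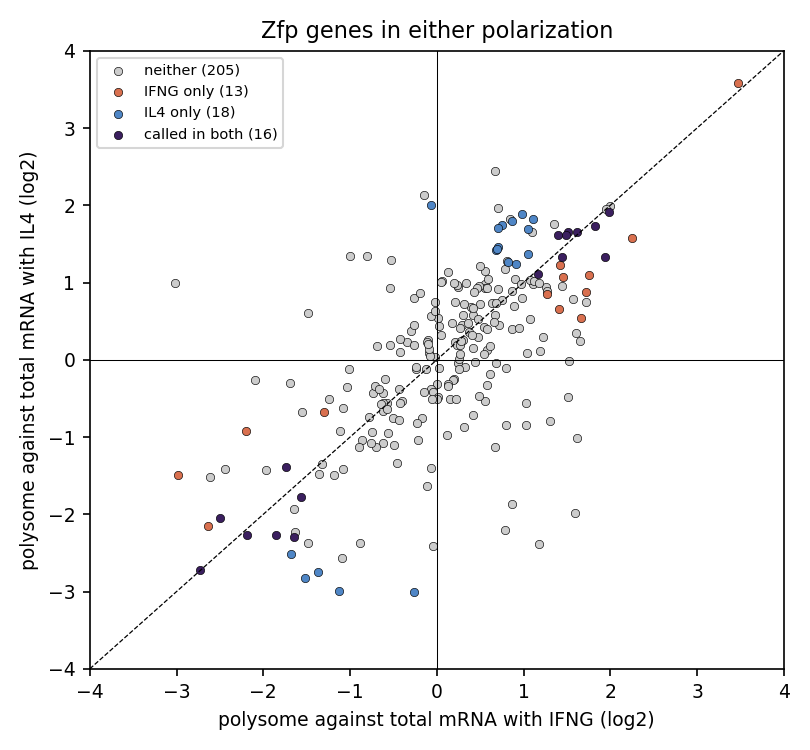
Each point is 1 of the 252 tested Zfp genes, placed by its log2 fold change of polysome against total mRNA with IFNG (x axis) and with IL4 (y axis); colours mark where it was called, and the dashed line marks equal values. The 16 genes called in both polarizations lie in the upper right (9) and lower left (7) corners.

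The second comparison was IFNG against IL4, first in total mRNA. Few Zfp messages differed. Of 252 tested members, 3 were higher with IFNG and 0 lower (1.19% called, against 11% of all features: 7.08% higher and 3.93% lower). At an unadjusted p under 0.05, 8 were higher and 1 lower, and DESeq2 and limma also called 0 lower. The 3 libraries of each group did not overlap for 22 members higher and 9 lower with IFNG, against 13.4% and 12.3% of all features. The SD of the log2 fold change was 0.64 over tested members and 1.42 over all features, and the medians were 0.08 and 0.04. With replicate number as a block, Zfp69 was also called lower (-2.08, adjusted p = 0.0406). On polysomes 5 members were higher and 3 lower (3.17% called, against 14.1% of all features: 7.54% and 6.58%), and 27 and 17 did not overlap, against 15.2% and 16% of all features. By level, 0 of the 119 members under 3 CPM and 0 of the 14 of 30 CPM and over were called in either fraction. Of all features under 3 CPM, 7.40% were called in total mRNA and 7.27% on polysomes. At 30 CPM and over, 13.04% and 16.76% of all features were called, and with only 14 members the 0 there says little. The 8 members called in at least 1 fraction had the same sign in both, and 3 of them, Zfp800, Zfp467 and Zfp516, were called in both.

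Zfp800 had 7.29, 29.9 and 35.8 CPM in IFNG total mRNA and 5.80, 4.47 and 7.15 in IL4 total mRNA. On polysomes it had 26.9, 45.6 and 12.6 with IFNG and 8.86, 5.67 and 4.92 with IL4. The groups did not overlap in either fraction, although IFNG total replicate 1 was just above the highest IL4 value, and the changes were 2.06 ± 0.55 (adjusted p = 0.0151) and 2.10 ± 0.57 (adjusted p = 0.0155). Zfp467, a regulator of fat cell formation from marrow cells, had 18.7, 19.9 and 14.2 CPM in IFNG total mRNA and 6.16, 7.36 and 4.05 with IL4. On polysomes it had 8.99, 16 and 8.86 with IFNG and 4.09, 4.25 and 3.40 with IL4. It was higher with IFNG in all libraries, by 1.58 ± 0.45 in total mRNA (adjusted p = 0.0235) and 1.52 ± 0.49 on polysomes (adjusted p = 0.0391).

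Zfp516, a transcription factor of brown fat, combined both differences. It had 17.1, 21.9 and 14.2 CPM in IFNG total mRNA and 6.16, 6.68 and 7.72 in IL4 total mRNA. On polysomes it had 32.8, 61.6 and 58.0 with IFNG and 28.1, 19.1 and 17.0 with IL4. The IFNG libraries were above the IL4 libraries in each fraction, by 1.37 ± 0.41 (adjusted p = 0.0315) and 1.23 ± 0.41 (adjusted p = 0.0472), and the polysome libraries above the total libraries within each polarization.

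Zfp292, a DNA-binding factor first described at the growth hormone promoter, had 22.5, 37.0 and 20.7 CPM on IFNG polysomes and 8.86, 8.14 and 5.67 on IL4 polysomes, a change of 1.81 ± 0.48 (adjusted p = 0.0141). In total mRNA it had 5.52, 12.8 and 11.9 CPM with IFNG and 3.77, 4.05 and 6.70 with IL4, which overlapped and was not called (1.05 ± 0.47). Zfp281, a regulator of pluripotency genes, had 16.2, 15.1 and 12.2 CPM on IFNG polysomes and 5.45, 3.54 and 3.40 on IL4 polysomes (1.78 ± 0.52, adjusted p = 0.0233), and 1.27 ± 0.48 in total mRNA (adjusted p = 0.104). The pattern of Zfp292 over the 12 libraries was most like those of Zfp516, Zfp318 and Zfp148, with Pearson correlations of log2 CPM of 0.88, 0.87 and 0.87. Of deviations from the group means, which leave the groups out, these were 0.44, 0.80 and 0.77; libraries, depth and polysome fraction are shared by all of them.

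The 3 members lower with IFNG on polysomes were Zfp772, Zfp69 and Zfp277, and all 3 rested in part on 1 library. Zfp772 had 1.85, 2.94 and 1.11 CPM on IFNG polysomes and 3.54, 7.44 and 20.0 on IL4 polysomes (-2.33 ± 0.68, adjusted p = 0.0246), while its total mRNA values of 1.67 to 3.16 CPM overlapped. Zfp69, a KRAB-type gene linked to diabetes in obese mice, had 1.32, 2.52 and 1.85 CPM on IFNG polysomes and 3.54, 7.08 and 16.6 on IL4 polysomes (-2.25 ± 0.73, adjusted p = 0.0428). In total mRNA it had 0.190, 0.814 and 1.21 CPM with IFNG and 2.61, 2.15 and 3.16 with IL4, also without overlap. Zfp277, which works with Polycomb proteins at the Cdkn2a locus, had 16.1, 32.4 and 18.1 CPM on IFNG polysomes and 34.3, 55.9 and 102 on IL4 polysomes (-1.53 ± 0.49, adjusted p = 0.0398). The highest value of all 3 was in IL4 polysome replicate 3. Without that library the changes were -1.33, -1.38 and -0.92, with adjusted p of 0.297, 0.329 and 0.303. The calls of Zfp69 and Zfp277 were also lost with Lars2 left out.

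The calls with the polarization depended on single libraries. Omission of IFNG polysome replicate 2 ended the call on polysomes of Zfp292 (1.5, adjusted p = 0.0821), Zfp800, Zfp281, Zfp467, Zfp516 and Zfp69, and left 0 members called higher. Omission of IL4 polysome replicate 2 or 3 ended those of Zfp800, Zfp281, Zfp467, Zfp516, Zfp69 and Zfp277, and omission of IFNG polysome replicate 1 or 3 ended those of Zfp772, Zfp69 and Zfp277. On polysomes the call of Zfp516 also needed IFNG polysome replicate 3 and each IL4 total library, that of Zfp467 IL4 polysome replicate 1, and those of Zfp467 and Zfp69 IL4 total replicates 1 and 2. Those of Zfp277 and Zfp69 were also lost without IFNG total replicate 2, and Zfp277 without IL4 total replicate 2. In total mRNA 0 members were left without IFNG total replicate 2 or IL4 total replicate 1 or 2, and 1 without IFNG total replicate 1 or IL4 total replicate 3. With IFNG total replicate 3 left out, Zfp800 had 1.64 (adjusted p = 0.0573). With library totals in place of TMM scaling, all calls except that of Zfp772 were lost, as the median of all features moved to -0.30 in total mRNA. The summed dendritic cell and neutrophil markers above were also higher with IFNG in total mRNA without overlap, as were the dendritic cell markers on polysomes. Of 3 tested neutrophil markers 1 was called higher in total mRNA, and of 2 tested dendritic cell markers both were called in each fraction. The part of these cells in the differences was not tested.

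**Figure D5:**
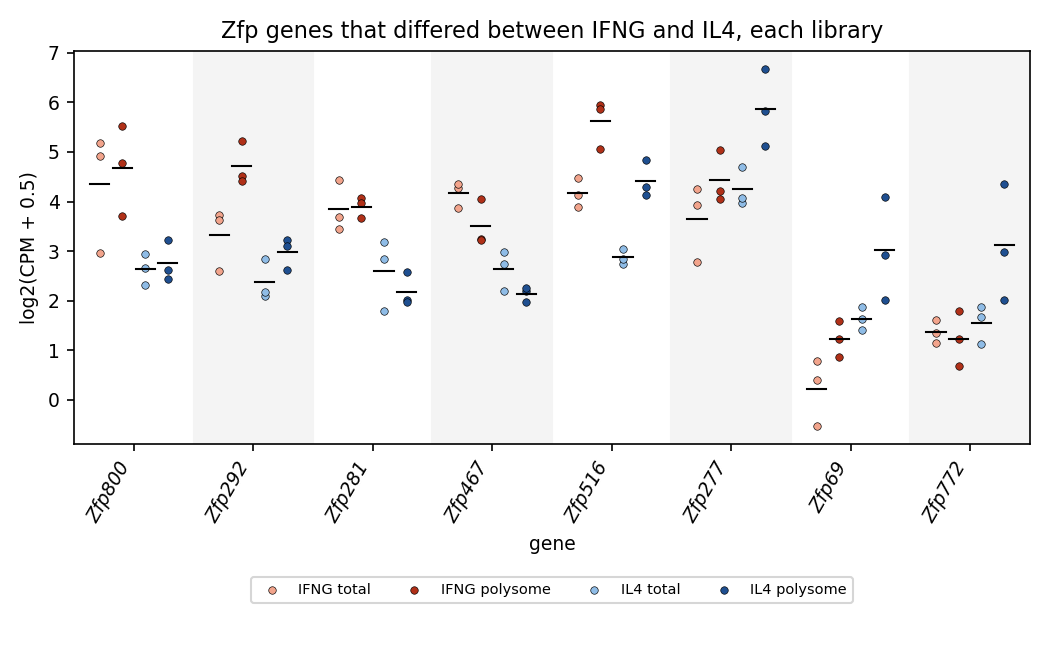
Each point is 1 library and each bar the mean of 3, on a scale of log2(CPM + 0.5), for the 8 Zfp genes called between IFNG and IL4 in total mRNA or on polysomes. The IFNG bars lie above the IL4 bars in both fractions for Zfp800, Zfp467, Zfp516, Zfp292 and Zfp281, and below them for Zfp277, Zfp69 and Zfp772.

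Among the members named, Zfp775, Zfp706, Zfp84, Zfp516, Zfp800, Zfp292, Zfp277, Zfp593, Zfp638, Zfp335, Zfp91, Zfp318, Zfp384, Zfp445, Zfp512b and Zfp609 overlap another annotated gene, as do 98 of the 303 in all. Without a known strand setting, reads of such pairs cannot be told apart. Members of tandem clusters have close copies, between which reads may have been split, and their values are uncertain to that degree.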

How the data were processed

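RNA was sequenced from 12 libraries by SmartSeq2, per the labels' protocols. The deposited files hold read counts per gene and the authors' TMM-normalized log2 values, per the file headers. HISAT2, HISAT, limma and mm10 are named in the submitters' processing notes; the counter and its strand setting were not given in sources used here. The log2 values served to choose members and in an alternative.

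Counts of all features passing filterByExpr (10421) were fitted in edgeR 4.0.16 (R 4.3.3; TMM, robust quasi-likelihood, 4 groups), with Benjamini-Hochberg adjustment over all of them and a threshold of 0.05; a log2 fold change is given ± its standard error. DESeq2 1.42.0 and limma 3.58.1 were alternatives. The procedure was tested on simulated data. CPM were computed with the library total scaled by its TMM factor. Deviations of same-numbered libraries from their group means correlated between IFNG and IL4 (0.52, 0.15 and 0.74 in total mRNA and 0.25, 0.15 and 0.35 on polysomes). IFNG total replicate 2 correlated more with IL4 total replicate 1 (0.40) than with IL4 total replicate 2, so a pairing by number is not settled. The main fit had no block, and a block by replicate number was an alternative.

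Members and gene lists were chosen with earlier results of these data known. Named genes were the 12 lowest and 8 highest called polysome changes among members of at least 3 CPM in a group, all members called between IFNG and IL4, up to 6 genes of each role list by level, the 3 most like Zfp292, and those at the edge of the authors' filter; other called members of the role lists were named after their values were seen. Transcript lengths were not used here, so levels per kilobase were not computed. Promoter sequences and coordinates are from RefSeq (GRCm38.p6). Some items are not reported here.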

Additional observations from a re-analysis of the deposited data

How the results depend on the processing

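The counts of tested Zfp genes higher on polysomes on average stayed within 1.5 times under every alternative run (33 to 51), and no named gene that was called turned its direction. The medians for polysome against total mRNA on average and within IFNG, and for IFNG against IL4 on polysomes, stayed above 0. That for IFNG against IL4 in total mRNA (0.08) was -0.25 with library totals, -0.10 without IFNG total replicate 3 and -0.0004 without IFNG total replicate 2. That within IL4 (0.19) was -0.0058 without Lars2 and -0.057 without IL4 polysome replicate 1. That of the interaction (0.03) was -0.057, -0.030 and -0.13 without IFNG polysome replicate 1, IFNG polysome replicate 2 and IL4 total replicate 3. With library totals in place of TMM scaling, 18 were lower on average, 4 were lower within IFNG, and between IFNG and IL4 0 were higher in total mRNA, 0 higher and 1 lower on polysomes. Without Lars2, 12 were higher within IL4 and 1 was lower with IFNG on polysomes. With no filter on low counts, 3 were higher with IFNG on polysomes. Among members of at least 10 CPM, 9 were lower on average and 6 lower within IL4; the medians were 0.85 on average, 0.82 within IFNG and 0.85 within IL4; and 1 was higher with IFNG in total mRNA, 3 higher and 1 lower on polysomes, where fewer genes were tested. DESeq2 called 5 lower with IFNG on polysomes, and limma on the authors' log2 values called 19 lower within IL4 and 8 higher with IFNG on polysomes. A fit of only the groups compared gave 10 higher within IFNG and 22 lower within IL4. With libraries thinned to 1 depth, 20 were lower on average, with a median of 0.52, and 1 was higher with IFNG in total mRNA and 1 lower on polysomes. Beyond the fewer genes or samples that an alternative holds, the cause was not tested. With 1 library left out in turn, counts within IFNG ran from 5 to 20 higher and 6 to 16 lower, and within IL4 from 6 to 24 higher and 8 to 18 lower; with IFNG against IL4 they ran from 0 to 4 higher in total mRNA, and from 0 to 9 higher and 0 to 3 lower on polysomes. Averaged, they ran from 38 to 50 higher and 22 to 33 lower. With replicate number as a block, 1 member, Zfp69, was called lower with IFNG in total mRNA, and the block changed no other count of IFNG against IL4. Same-numbered total and polysome libraries did not deviate together throughout (correlations of 0.27, 0.43 and -0.07 with IFNG and 0.02, 0.40 and 0.05 with IL4), and the labels do not say that a number marks 1 cell population, so they were not treated as pairs; the block by number gave 48 higher and 31 lower on average, and by preparation 48 and 30. Below 3 CPM the median standard error of the averaged change was 0.63, and at 30 CPM and over it was 0.30.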

Other observations

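Neighbouring members did not always move the same way. Of 134 pairs of consecutive members within 100 kb, 6 had both genes called on polysomes, 4 in the same and 2 in opposite directions. The 134 include pairs with an untested member. Neighbouring pairs of other genes were not counted, so these numbers do not set the members apart. Zfp579 and Zfp524, Zfp787 and Zfp444, and Zfp771 and Zfp768 were lower together, and Zfp266 and Zfp846 higher together. Zfp524 was lower and Zfp865, which begins 1882 bases from it, was higher, and Zfp560 was lower while Zfp26, 43135 bases away, was higher. These genes were chosen after their values were seen.

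Zfp750 had a log2 fold change on polysomes of 3.52 ± 0.93 (adjusted p = 0.00375, edgeR), above those of the members described, at levels below the limit for description. Its counts were 3, 0 and 3 in IFNG total mRNA, 12, 14 and 5 on IFNG polysomes, 0, 0 and 2 in IL4 total mRNA and 11, 0 and 0 on IL4 polysomes. Only polysome libraries, where it was high, carried it past the filter on low counts, so its test gives no separate support for a rise. With IL4 all its polysome reads came from 1 library. Zfp750 was named after its values were seen. A further 10 features of the files join a Zfp symbol with that of another gene, such as Zfp687 with Pi4kb, and are not members.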
